A study of Mus musculus with 6 samples.

Results

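Stretches of chromatin that ATAC-seq called open in every young library and in no old library numbered 5743, out of 403801 regions found in any library (1.42%). They were obtained by merging all peaks on chromosomes 1 to 19 and X that overlapped by at least 1 bp, and by keeping each merged region with a peak in all 3 young lists and in none of the 3 old lists. They are called young-only regions here, and the mirror image, with peaks in all 3 old lists and in no young list, old-only regions (2071, 0.513% of all regions). The regions were chosen by the peak calls of all 6 libraries, so the counts and strengths below describe them and are not tests of an age difference. Open chromatin was profiled in macrophages of old mice, over 78 weeks of age, and of young mice, 3 weeks of age, with 3 libraries per age. All mice were wild-type BALB/c. The cells were marrow cells that adhered and grew in culture, with the surface type F4/80+CD169+, so they were not taken fresh from the marrow. Each library came from 50000 cells. The labels do not say whether the replicates are separate mice or cultures, so the spread between libraries may be technical.

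ATAC-seq uses a transposase that inserts sequencing adapters where DNA is free of nucleosomes, so a peak marks an accessible stretch such as a promoter or an enhancer. Macrophages derive from myeloid precursors under the control of factors such as PU.1, C/EBP and RUNX proteins, which bind many of their enhancers together with AP-1. Promoters of broadly used genes tend to be open in most cells, while accessible sites far from gene starts differ more between cell types and states. In the marrow, macrophages take up dying cells, secrete chemokines and cytokines and support the niche in which B cells develop.

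The old lists held 245482, 227787 and 215753 peaks covering 63.7, 48.2 and 48.9 Mb (old libraries 1, 2 and 3), against 243748, 222831 and 254221 peaks over 62.2, 52.3 and 66.0 Mb in young libraries 1, 2 and 3. The mean covered length was 53.6 ± 8.75 Mb in old and 60.2 ± 7.08 Mb in young libraries (SD, n = 3 each), a difference no larger than the replicates' own spread (exact permutation, two-sided, p = 0.3, where 3 against 3 cannot give less than 0.1). One list of each age stood apart, since old library 1 was as wide as young libraries 1 and 3, and young library 2 was close to old libraries 2 and 3. Read numbers are not known here, and a missing peak says only that none was called. Fewer cells with an open site and less access per cell cannot be told apart in such bulk libraries. The loci of the macrophage markers Adgre1, Siglec1, Csf1r, Cd68, Itgam, Mertk, Spi1 and Lyz2 held peaks in each of the 6 libraries (8 of 8 genes), with a summed length of 518 to 551 bp per covered Mb in old and 540 to 559 bp per covered Mb in young libraries. Loci of other cell types held peaks as well (B cell markers 460 to 485 bp per covered Mb in old and 387 to 474 in young libraries, neutrophil markers 128 to 135 in old and 129 to 144 in young, stromal markers 445 to 473 in old and 437 to 476 in young), so the lists by themselves do not set the cell type. The endothelial markers (4 of 4 genes with peaks in each library) were the one list whose ranges did not overlap, at 203 to 216 bp per covered Mb in old and 226 to 230 in young libraries. By order alone, 3 against 3 values separate fully in a share of 0.1 of cases, and several lists were compared. Endothelial marker loci held 1 young-only region among 96 (1.04%), against 1.35% around all protein-coding genes. The part of endothelial loci in the number of young-only regions was not tested. The T cell, erythroid, osteoblast and osteoclast lists overlapped between the ages. Cd8a, Gata1, Hbb-bt and Calcr were without a peak in at least 1 library.

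In all, 31 promoter windows of 30 genes overlapped young-only regions, and the sequences of the 6 best-ranked are printed because they are where a region open in young libraries alone meets a known gene start. Each line gives the 250 bases before the start in the direction of the gene (RefSeq, build GRCm38.p6, whose primary chromosomes are those of mm10), and capitals mark the bases under the young-only region. Clec11a, which codes for a growth factor secreted by marrow cells, is shown from chr7:44306960-44307209 (minus strand), and Gpr31b, a G protein-coupled receptor gene, from chr17:13052281-13052530 (minus strand). Hrh2, the gene of the histamine H2 receptor, is shown from chr13:54191883-54192132 (plus strand), and Dpt, which codes for the matrix protein dermatopontin, from chr1:164796413-164796662 (plus strand). Pilra, an inhibitory immunoglobulin-like receptor of myeloid cells, is shown from chr5:137836279-137836528 (minus strand), and Palld, which codes for the actin-associated protein palladin, from chr8:61902708-61902957 (minus strand).
Clec11a: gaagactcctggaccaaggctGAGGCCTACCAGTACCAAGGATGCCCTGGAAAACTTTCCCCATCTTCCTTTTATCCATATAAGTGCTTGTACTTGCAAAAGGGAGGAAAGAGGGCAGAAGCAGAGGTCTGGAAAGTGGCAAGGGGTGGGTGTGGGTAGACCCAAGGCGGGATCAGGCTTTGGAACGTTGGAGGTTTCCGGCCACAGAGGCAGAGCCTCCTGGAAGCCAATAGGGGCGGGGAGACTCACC
Gpr31b: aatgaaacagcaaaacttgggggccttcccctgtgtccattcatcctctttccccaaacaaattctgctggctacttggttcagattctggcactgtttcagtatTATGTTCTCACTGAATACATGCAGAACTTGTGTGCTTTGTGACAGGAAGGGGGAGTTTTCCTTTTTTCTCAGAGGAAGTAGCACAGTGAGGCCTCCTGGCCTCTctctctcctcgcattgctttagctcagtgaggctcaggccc
Hrh2: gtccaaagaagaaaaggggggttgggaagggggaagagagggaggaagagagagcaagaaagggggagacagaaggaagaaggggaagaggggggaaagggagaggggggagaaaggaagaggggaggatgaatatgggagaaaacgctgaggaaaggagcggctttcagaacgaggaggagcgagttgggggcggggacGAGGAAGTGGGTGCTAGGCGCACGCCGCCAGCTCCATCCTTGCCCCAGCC
Dpt: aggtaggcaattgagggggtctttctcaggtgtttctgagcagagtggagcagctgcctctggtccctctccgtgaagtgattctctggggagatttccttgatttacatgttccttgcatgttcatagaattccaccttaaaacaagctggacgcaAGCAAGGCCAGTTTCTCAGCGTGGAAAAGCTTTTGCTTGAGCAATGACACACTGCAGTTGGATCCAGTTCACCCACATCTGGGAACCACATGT
Pilra: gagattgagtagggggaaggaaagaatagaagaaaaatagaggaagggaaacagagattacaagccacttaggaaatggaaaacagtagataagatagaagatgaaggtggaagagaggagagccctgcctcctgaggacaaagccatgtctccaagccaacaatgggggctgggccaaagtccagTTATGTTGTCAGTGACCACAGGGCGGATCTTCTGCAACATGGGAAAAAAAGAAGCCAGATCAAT
Palld: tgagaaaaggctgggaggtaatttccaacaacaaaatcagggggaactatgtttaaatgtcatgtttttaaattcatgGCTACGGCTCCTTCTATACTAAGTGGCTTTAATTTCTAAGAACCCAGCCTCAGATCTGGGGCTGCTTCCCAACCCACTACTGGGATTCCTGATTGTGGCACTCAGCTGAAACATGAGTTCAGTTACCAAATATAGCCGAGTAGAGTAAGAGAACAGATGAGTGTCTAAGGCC

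At these 6 gene starts no old library had a peak in the region. At Gpr31b the peaks of young libraries 1, 2 and 3 had −log10 q values of 6.74, 3.35 and 4.51 and fold enrichments of 5.16, 3.74 and 4.23. At Dpt the −log10 q values were 5.93, 5.70 and 3.25, and at Clec11a they were 3.90, 3.55 and 5.41 with lower folds of 2.35, 2.47 and 2.44. Both measures belong to single peaks, were written by the authors' peak caller, and rank a peak within its own list. Hrh2 was even over the libraries, with −log10 q values of 3.40, 3.04 and 3.42, Pilra had 3.39, 2.67 and 2.78, and Palld had 2.61, 1.84 and 3.95. The nearest old peak lay 1278 bp from the Clec11a region and 525 bp from that of Hrh2, but 3853 and 4396 bp from those of Gpr31b and Palld. Other windows that met a young-only region belonged to Btla, an inhibitory receptor of lymphocytes, the Notch ligand gene Jag2, Fbp1 of gluconeogenesis, the angiotensin receptor gene Agtr1b, the myeloid inflammasome-family gene Nlrp12, the phosphatase gene Ptpn7 and the endothelial claudin gene Cldn5, where the weakest of the 3 young peaks ranked between the 2.58th (Ptpn7) and the 19.9th percentile (Btla) of its list.

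The letters GAGGAAGT, a PU.1 motif, on either strand stood in 6 of the 31 windows (19.4%), against 3.09% of the 12626 windows that met a region open in all 6 libraries and 3.15% of all 21045 windows of 300 bases. Since 2 of the 6 windows are overlapping starts of Hrh2, the count by gene was 5 of 30 (16.7%), against 3.66% of all genes with a window. In Gpr31b and Hrh2 the motif lay within the capitals, and in Btla, Fbp1 and Doxl2 outside the region. The C/EBP motif TTGCNNAA stood in 22.6% of the 31 windows, against 10.3% of all windows, the RUNX motif TGTGGT in 22.6% against 14.7%, the E-box CANNTG in 58.1% against 69.0%, and the AP-1 motif TGANTCA in 3.23% against 7.04%. The 31 windows held a median of 7 CpG dinucleotides, as did the 1389 windows that met another kind of region, while windows open in all 6 libraries held 21. With 31 windows these shares are coarse, and a match says only that the letters are there.

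**Figure D1:**
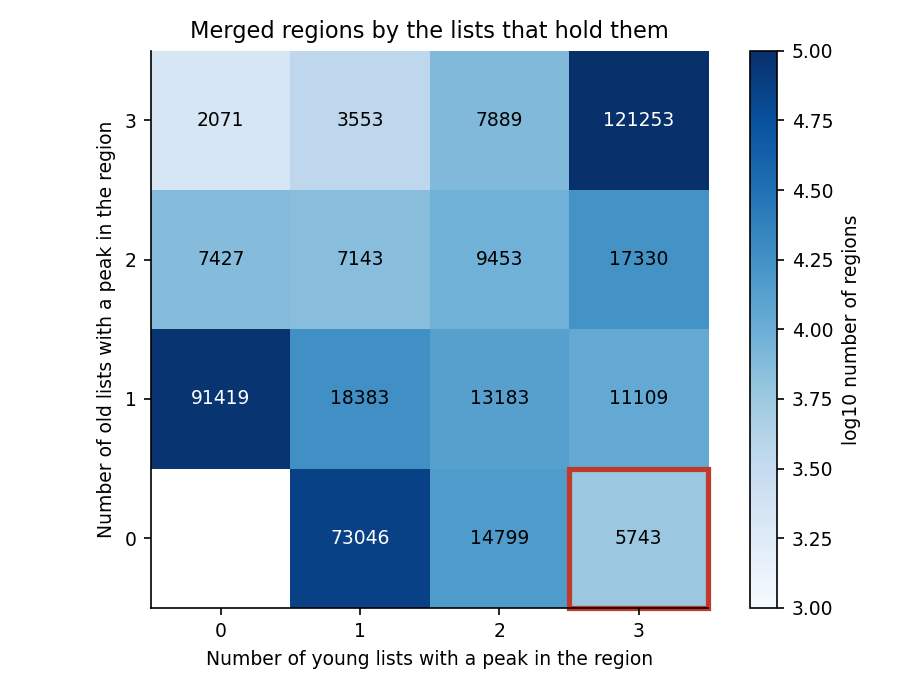
Number of merged regions by how many young lists (horizontal axis) and how many old lists (vertical axis) held a peak in them, with the color on a log10 scale. The red frame marks the 5743 young-only regions, and the opposite corner holds the 2071 old-only regions.

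Young-only regions were one corner of a wide field of partly shared regions. Peaks were shared by all 6 lists in 121253 regions (30.03%), while 73046 regions had a peak in a single young list and no old list, and 91419 in a single old list and no young list. Just outside the rule stood 11109 regions with peaks in all 3 young lists and 1 old list, and 14799 with peaks in 2 young lists and no old list. In 8367 of those 11109 the old list was that of library 1, the widest old list, against 1359 for old library 2 and 1383 for old library 3. The 3 lists of widest coverage (old 1, young 1 and young 3) shared 6016 regions that no other list held, more than the 5743 young-only ones, and the other 3 lists shared 177. The part of list width in the number of young-only regions was not tested. Without old library 1 the rule kept 14373 regions, without young library 2 it kept 15173, without young library 1 it kept 8943, and with a −log10 q of at least 5 in all 6 lists it kept 2002. Leaving out a library drops 1 condition of the rule, which makes a higher count likely. Among the 50000 strongest peaks of each library, young-only regions (1713) were fewer than old-only regions (2175), so the balance between the ages turned. None of the 1713 was among the 5743, and none could be. The weakest peak of the 5743 reached the 73.9th percentile at most, outside the 50000 strongest of its list. That limit also removed weaker old peaks, so the 1713 are regions without a strong old peak.

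The young-only regions were weak peaks by the standards of their own lists. Ranked by −log10 q within its list, the median young-only region stood at the 32.0th percentile in young library 1, the 26.6th in young library 2 and the 31.5th in young library 3. Their median fold enrichments were 3.13, 3.03 and 3.13, against list medians of 3.52, 3.40 and 3.52. Of the 5743 regions, 1055, 664 and 1015 ranked in the upper part of the list (over the 50th percentile) in young libraries 1, 2 and 3. A single one ranked over the 90th percentile of a list, a 124 bp region in Hes1, a repressor gene downstream of Notch, which had a −log10 q of 19.7 in young library 3 but 1.77 and 2.30 in young libraries 1 and 2, and lay 140 bp from an old peak.

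**Figure D2:**
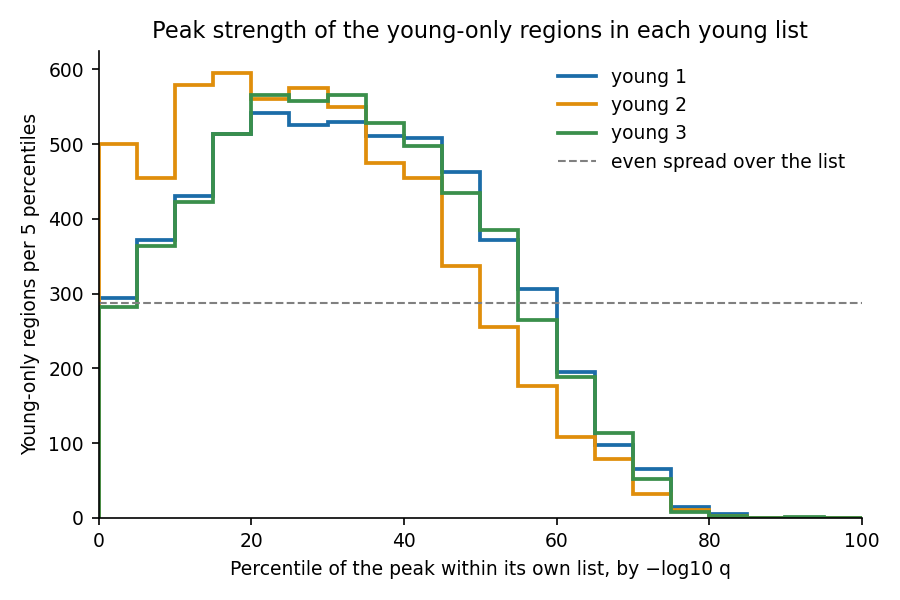
Distribution of the 5743 young-only regions over the percentile ranks of their peaks in each of the 3 young lists, ranked by −log10 q, in steps of 5 percentiles. The dashed line is the height an even spread would give. All 3 curves lie above it between the 5th and the 50th percentile and under it past the 60th.

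Taking the weakest of the 3 young peaks of each region, the median was the 16.1th percentile (lower quartile 7.89, upper quartile 26.9, highest 73.9). The same value was 17.6 for old-only regions in the old lists and 67.8 for regions open in all 6 libraries. In 1858 young-only regions (32.4%) the weakest peak was under the 10th percentile of its list, and in 167 (2.91%) it ranked over the 50th percentile. The weakest peak was that of young library 2 in 2549 regions (44.4%), of young library 1 in 1591 and of young library 3 in 1603. Ranks of the same regions in different young libraries were loosely related, with Spearman coefficients across regions of 0.27, 0.40 and 0.27 (young libraries 1 and 2, 1 and 3, 2 and 3), against 0.91 to 0.93 for regions open in all 6 libraries. These coefficients describe regions that share libraries and carry no test. The regions were narrow, with a median of 176 bp (29 to 1020 bp), against 191 bp for old-only regions and 447 bp for regions open in all 6 libraries.

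In 9 young-only regions all 3 young peaks had a −log10 q of at least 5. The strongest by rank lay 154870 bp from Spry2, a gene that restrains receptor tyrosine kinase signalling, at chr14:105737042-105737077. No old library had a peak there, while young libraries 1, 2 and 3 had −log10 q values of 7.99, 6.36 and 7.46 and folds of 4.02, 3.76 and 3.68. That region was only 36 bp wide and the nearest old peak was at 201 bp. A 358 bp region in Zbtb37, a zinc finger protein gene, at chr1:161010434-161010791 had −log10 q values of 6.37, 5.14 and 7.21, with the nearest old peak at 6748 bp. The region 43989 bp from Grik2, which codes for a kainate-type glutamate receptor subunit, stood alone. It spanned 415 bp (chr10:49049277-49049691), had −log10 q values of 6.41, 5.78 and 6.38 and folds of 4.98, 4.62 and 4.91 in young libraries 1, 2 and 3, and the nearest old peak was 101985 bp away.

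The other 6 of the 9 had old peaks at 133 to 1480 bp. In Itpr1, the gene of an endoplasmic reticulum calcium channel, a 120 bp region had −log10 q values of 6.45, 5.99 and 5.61 and an old peak at 719 bp. At 9506 bp from Spsb1, whose product directs inducible nitric oxide synthase to degradation, the values were 5.45, 5.17 and 5.56 and the old peak was at 1480 bp. Slc23a2, a vitamin C transporter gene, had 5.11, 6.81 and 6.51 with an old peak at 223 bp, and the region 4701 bp from Cbwd1 had 5.96, 8.07 and 6.01 with an old peak at 337 bp. The remaining pair sat at gene ends. Snx11, a sorting nexin gene, had 6.75, 5.84 and 6.38, and Sin3a, which codes for the scaffold of a histone deacetylase co-repressor, had 6.50, 6.52 and 5.62. These regions were 48 and 68 bp wide, with old peaks at 133 and 157 bp.

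Of the 167 regions whose weakest peak ranked over the 50th percentile, 27 lay over 10 kb from any old peak. Of these 18 lay outside genes and 9 in gene bodies. A group of 3 had Pcdh17, a protocadherin gene, as the nearest, at 396628, 618740 and 622190 bp from it, and others lay in Sorcs1 (a sorting receptor), Lsamp (a neuronal adhesion protein), Nxph1 (a neurexin ligand), Grin3a (a glutamate receptor subunit), Pde4b (a cyclic AMP phosphodiesterase that is active in macrophages) and Mmp16 (a membrane-bound matrix metalloprotease). In Sorcs1 young libraries 1, 2 and 3 had −log10 q values of 6.37, 4.64 and 5.74, in Pde4b 6.44, 4.39 and 6.45, and in Lsamp 4.05, 4.41 and 7.98, with the nearest old peaks at 21099, 18382 and 80212 bp. The region near the T cell costimulatory receptor gene Cd28 was the least even over libraries, with 9.97, 3.23 and 6.95. The region farthest from an old peak lay 26951 bp from Mageb2 on chromosome X, with 4.26, 3.45 and 4.41 and no old peak within 982701 bp.

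Most young-only regions were not isolated in this way. The median distance to the nearest old peak was 1.05 kb, 192 regions (3.34%) had an old peak within 100 bp, 2811 (48.9%) within 1 kb and 5237 (91.2%) within 10 kb. Old-only regions had a young peak within 1 kb in 39.8% of cases. A region open in all 6 libraries lay within 1 kb of 31.0% of young-only and 21.1% of old-only regions. The regions next to old peaks were narrower and nearer to genes. Those within 200 bp of an old peak had a median width of 142 bp and lay at gene ends in 11.9% of cases, against 198.5 bp and 1.98% for the 506 regions over 10 kb away. The 119 regions of 50 bp or less, 105 of them within 1 kb of an old peak, had a median weakest rank of 29.6, above the 14.0 of the 2631 regions over 100 and up to 200 bp wide. The share within 1 kb was 21.4% with a −log10 q of at least 5 and 11.4% with the 50000 strongest peaks, which also thin the old peaks, and 82.9% when a list had to cover 50% of a region to hold it. Under that cover rule a region may itself contain a shorter old peak.

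**Figure D3:**
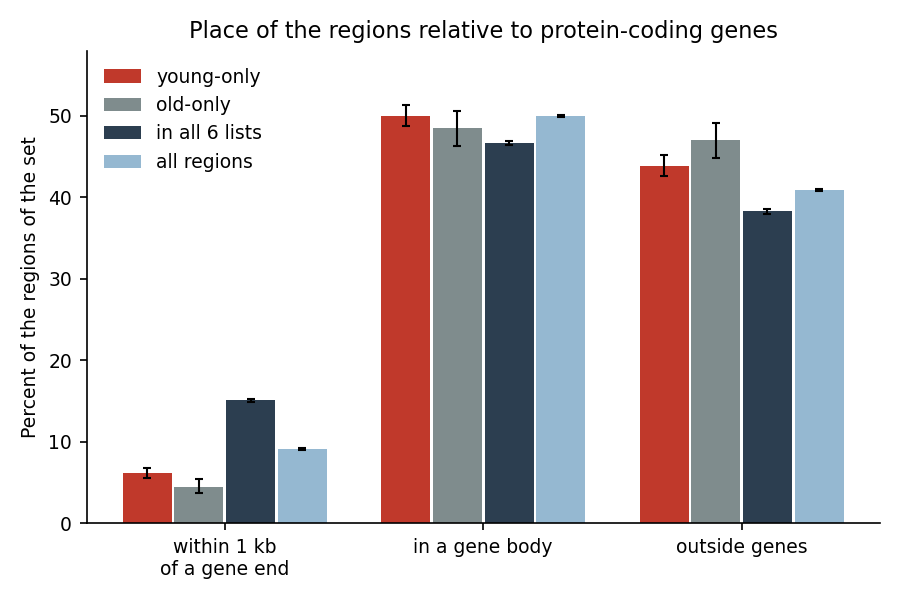
Percent of young-only, old-only, commonly open (all 6 lists) and all regions that lie within 1 kb of either end of a protein-coding gene, inside a gene body, or outside genes, with 95% Wilson intervals for counting error. Young-only regions reached gene ends in 6.11% of cases, against 15.1% of regions open in all 6 libraries.

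Young-only regions lay mostly away from gene ends. Of the 5743, 351 (6.11%, 95% Wilson interval 5.52 to 6.76%) were within 1 kb of an end of a protein-coding gene, 2872 (50.01%) were in a gene body and 2520 (43.9%) outside genes. The shares at gene ends were 4.49% for old-only regions, 15.1% for regions open in all 6 libraries and 9.08% for all regions. Regions outside genes were a median of 40.3 kb from the nearest gene, against 39.5 kb for old-only regions, 26.0 kb for those open in all 6 libraries and 29.4 kb for all regions. The gene bodies that held young-only regions were long, with a median of 123 kb, against 114 kb for old-only regions, 103 kb for regions open in all 6 libraries and 106 kb for all regions. Exons and introns were not separated, since the gene table gives spans.

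Counted from gene starts, 241 young-only regions lay within 1 kb of one (4.37% outside chromosome 18, for which no starts were used), against 29 old-only regions (1.44%). Both shares were under the 6.29% of all regions, and the share was higher still for regions open in all 6 libraries. Of the 241, 183 (75.9%) also had a region open in all 6 libraries within 1 kb, as had 18 of the 29 old-only ones (62.1%). Several of the best-ranked regions at gene ends were very narrow. In Tacc3, which codes for a mitotic spindle protein, a 29 bp region had −log10 q values of 4.61, 5.43 and 4.64 and lay 114 bp from an old peak of the 99.86th percentile of its list. In Kif11, the gene of a mitotic kinesin, the values were 5.16, 3.95 and 4.41 over 29 bp, with an old peak of the 97.25th percentile at 353 bp, and near Sertad3 they were 4.44, 4.13 and 5.60 over 119 bp, with an old peak of the 99.5th percentile at 227 bp. Vamp2, a vesicle SNARE gene, had 6.81, 4.69 and 8.17 over 35 bp, with an old peak of the 82.9th percentile at 1996 bp. Cdc40, a splicing factor gene, had 4.03, 3.65 and 4.64 over 37 bp, with an old peak of the 34.8th percentile at 141 bp. Folds in these 5 regions ran from 2.36 to 3.45. Aldh3b2, an aldehyde dehydrogenase gene, had 3.84, 4.24 and 5.44 with an old peak at 909 bp, and the olfactory receptor gene Olfr1230 had the widest of the 10 best-ranked (553 bp, with 3.91, 6.25 and 5.30), 4706 bp from an old peak.

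**Figure D4:**
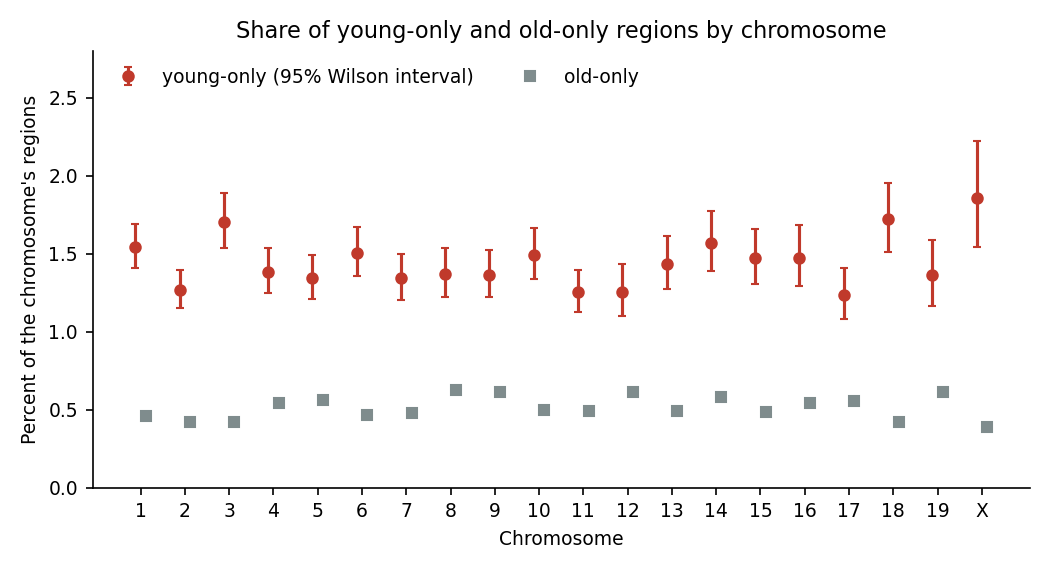
Percent of all merged regions on each chromosome that were young-only (red, with 95% Wilson intervals for counting error) and old-only (grey). Young-only shares lay between 1.24 and 1.72% on the autosomes and at 1.85% on X, where the old-only share was 0.390%.

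Young-only regions occurred on every chromosome examined. Their share of the regions of an autosome ran from 1.24% (chromosome 17) to 1.72% (chromosome 18), with chromosome 3 at 1.70%. On chromosome X 114 of 6148 regions were young-only (1.85%, 95% Wilson interval 1.55 to 2.22%) and 24 old-only (0.390%, under the autosomal range of 0.419 to 0.625%). That old-only share rests on 24 regions, and no interval was computed for it. The labels do not give the sex of the mice. Over all peaks, the share on X was 1.85, 1.40 and 1.48% in old libraries 1, 2 and 3 and 1.81, 1.58 and 1.95% in young libraries 1, 2 and 3. The mean was 1.58 ± 0.238% in old and 1.78 ± 0.189% in young libraries (SD, n = 3 each). The difference of -0.204 percentage points lay between these SDs in size (exact permutation, two-sided, p = 0.3). The 3 widest lists also had the highest shares on X. Of the young-only regions themselves 1.99% were on X, which fell to 0.817% with the 50000 strongest peaks.

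Distances between neighbouring young-only regions were measured as well. Another young-only region was within 50 kb of 34.6% of them and the median distance to the next was 92.2 kb, against 16.2% and 272 kb for the 2071 old-only regions, which are fewer. Joined at gaps of up to 50 kb, young-only regions formed 881 chains of 2 or more and 32 of 4 or more, against 161 and 0 for old-only regions. A larger set lies closer together by number alone, no set of equal size was compared, and clustering beyond that was not tested. The share with a neighbour moved with the setting, at 60.8% without old library 1 and 61.0% without young library 2, 16.3% with a −log10 q of at least 5, and 18.97% with the 50000 strongest peaks.

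The longest chains had 5 regions each, and there were 6 of them. The densest lay at one end of Efcab11, an EF-hand protein gene on chromosome 12, where 5 of the 10 regions in 18.9 kb were young-only, 2 inside the gene and 3 outside it at 3662 to 10220 bp. Peaks covered 237, 265 and 137 bp of that stretch in old libraries 1, 2 and 3, and 1013, 792 and 984 bp in young libraries 1, 2 and 3. The best-ranked of the 5, at chr12:99700129-99700354, had −log10 q values of 3.68, 4.98 and 3.90 and lay 1368 bp from an old peak. All 3 old values lay under all 3 young values, as the choice of the stretch makes likely. The chain over Ets1, which codes for a lymphoid and endothelial transcription factor, spanned 113 kb with 5 of 55 regions young-only, and there peaks covered 9787, 7135 and 7379 bp in old and 9628, 7715 and 10031 bp in young libraries, values that overlapped.

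In the other 4 chains the covered lengths also overlapped between the ages. One ran over Pim1, the gene of a kinase induced by cytokines, and Tbc1d22b (9458, 6407 and 6721 bp in old, 9511, 8088 and 10275 bp in young libraries). Another held 3 regions in the actin-regulating formin gene Fmnl3 and 1 at 8593 bp from the cell death suppressor gene Tmbim6 (8688, 6826 and 7344 bp in old, 9652, 8165 and 10020 bp in young libraries). The chain in Farp1, a guanine nucleotide exchange factor gene, had 7645, 5521 and 5463 bp in old and 6343, 5973 and 7630 bp in young libraries, and that in the phosphatase gene Ppm1h had 7260, 5736 and 5894 bp in old and 7610, 6494 and 8091 bp in young libraries. In each of these 4 stretches 15 to 20 regions were open in all 6 libraries.

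Among stretches of 1 Mb, 4 held 11 young-only regions each, the highest number found. These stretches held 217, 273, 334 and 379 regions in all (chromosomes 8, 5, 14 and 2). Of those regions 5.07, 4.03, 3.29 and 2.90% were young-only, against 1.42% of all regions, and the stretches were picked for their counts. In the first, on chromosome 8 from 108000000 to 108999999, all 11 lay nearest to Zfhx3, which codes for a large homeodomain and zinc finger transcription factor. None of the 217 regions of that stretch was old-only, where the old-only share of all regions was only 0.513%. The best-ranked of the 11 was a 533 bp region outside the gene span at chr8:108013193-108013725, with −log10 q values of 7.36, 4.51 and 5.07 in young libraries 1, 2 and 3. The second, on chromosome 5, held 8 regions nearest to the interferon-induced GTPase genes Gbp8, Gbp4, Gbp10 and Gbp6 and 3 nearest to the anion channel genes Lrrc8c and Lrrc8d. The Gbp genes form a family of similar copies, and whether reads could be told apart between them was not tested. Of the 8 regions 1 lay inside Gbp4 and 1 inside Gbp6, and the rest outside, at 2575 to 50713 bp from the nearest Gbp gene. The third, on chromosome 14, held 6 regions nearest to Tsc22d1, a leucine zipper gene induced by TGF-beta (3 inside it and 3 at 47512 to 126654 bp), and 3 nearest to Serp2, at 145175 to 204353 bp. The fourth, on chromosome 2, held 6 nearest to Bcl2l11, which codes for the pro-apoptotic protein BIM (2 inside it and 4 at 78777 to 192918 bp), and 1 in Mertk. A further 6 stretches held 10 each. The one with the largest share of young-only regions among them, on chromosome 1, had 4 nearest to the manganese exporter gene Slc30a10, at 12996 to 263200 bp.

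**Figure D5:**
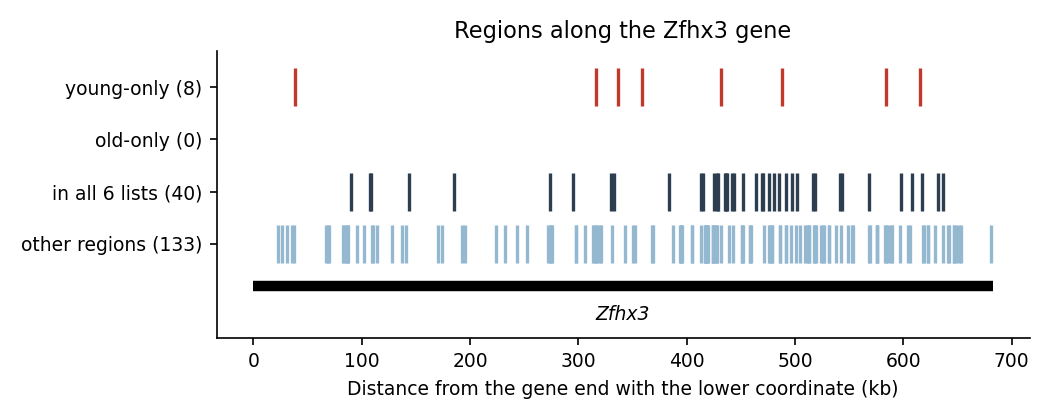
Regions along the Zfhx3 gene by distance in kb from the gene end with the lower coordinate, with young-only, old-only, commonly open (all 6 lists) and other regions in separate rows. The 8 young-only regions lie apart from one another among 181 regions. The old-only row is empty, where the old-only share of all regions in the series was only 0.513%.

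Inside gene spans, 2313 of 21631 protein-coding genes (10.7%) held a young-only region, against 4.33% for old-only regions, 553 held 2 or more and 22 held 5 or more. Zfhx3 led with 8 of its 181 regions (chr8:108279311-108961636, 4.42%), followed by Dync1i1, Adamtsl1, Macrod2, Cacna1c and Tenm4 with 6 each. In that order these 5 genes held 63, 116, 122, 168 and 187 regions in all. Their young-only shares were 9.52, 5.17, 4.92, 3.57 and 3.21%, against 1.42% of all regions, and the genes were picked for their counts. Of 16 genes tied at 5, Kcnn2, Srgap1, Nav3 and Myo16 had the highest shares of young-only regions among all their regions. Of the 22 genes with 5 or more, 13 held no old-only region. Old-only regions lay in 937 of all 21631 genes and in 320 of the 2313 with a young-only region. Most genes at large thus held none. Dync1i1 codes for a dynein chain, Cacna1c for the pore of a calcium channel, Kcnn2 for a potassium channel, Tenm4 for a synaptic adhesion protein, Srgap1 for a Slit-Robo effector, Nav3 for a neuron navigator, Myo16 for an unconventional myosin, Macrod2 for an ADP-ribose hydrolase and Adamtsl1 for a matrix protein. Their spans ran from 267 kb (Srgap1) to 1998 kb (Macrod2).

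The young-only regions of these genes had modest ranks. The 8 of Zfhx3 had a median weakest rank of 31.6, and the best-ranked of them, at chr8:108710711-108710832, had −log10 q values of 4.54, 4.20 and 3.27 and lay 155 bp from an old peak. In Nav3 a region at chr10:110426997-110427217 had 7.58, 3.17 and 4.79 and lay 2430 bp from an old peak. In Dync1i1 one at chr6:5829173-5829434 had 5.39, 2.65 and 5.20 with the nearest old peak at 21877 bp, and in Macrod2 one at chr2:142153557-142153704 had 4.06, 3.05 and 3.74 with the nearest old peak at 35794 bp.

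Outside their young-only regions these genes differed in how the ages compared. The peaks elsewhere in Dync1i1, scaled to each library's total covered length, covered 4574, 2958 and 2649 bp in old libraries 1, 2 and 3 and 6680, 4856 and 6538 bp in young libraries 1, 2 and 3, so that all old values were lower than all young values. Macrod2 was alike, with 12429 ± 325 bp in old and 16009 ± 775 bp in young libraries (SD, n = 3 each). So was Kcnn2, with 2836 ± 521 bp in old and 4122 ± 620 bp in young libraries. In Zfhx3 the values were 20501 ± 922 bp in old and 21311 ± 320 bp in young libraries, and in Cacna1c, where the old values were all higher, 23023 ± 217 bp in old and 21280 ± 1264 bp in young libraries. Over these 10 genes the ratio of old to young ran from 0.563 (Dync1i1) to 1.08 (Cacna1c), and over all 22 genes with 5 or more up to 1.15 (Ebf1). These values carry no test, as the genes were picked for peaks missing in old libraries. The share of all genes whose values separate by age in this way was not counted.

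Over the lists of genes described next, a locus is the gene with 10 kb on each side. Around all protein-coding genes 1.35% of regions were young-only and 0.469% old-only, and 15.8% of genes held a young-only region. Chemokine and receptor genes lay near this background, with 3 of 296 regions (1.01%) over 31 genes. One was at Cxcr5, the receptor of CXCL13 named in the title of the series. It was a 78 bp region at chr9:44512790-44512867, within 1 kb of a gene end, with −log10 q values of 2.47, 3.97 and 1.65 in young libraries 1, 2 and 3, and an old peak of the 9.58th percentile lay 98 bp away. The others lay 1806 bp from Ccl5, with 3.54, 1.40 and 3.51, and 2452 bp from Ccl9, with 3.00, 2.94 and 2.51. The locus of Cxcl13 held 0 young-only regions among 5, too few regions to set against a background of 1.35%.

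Of 24 macrophage identity genes, 5 held 6 young-only regions among 423 (1.42%) and none held an old-only region. Mrc1, the mannose receptor gene, held 2, the better ranked with −log10 q values of 3.19, 2.09 and 3.45. Mertk, a receptor for dying cells, held 1 with 2.85, 3.36 and 2.58, which lay 181 bp from an old peak. The region near Cebpb, a myeloid transcription factor gene, had 3.98, 1.45 and 5.25, that near Csf1r, the receptor gene of the macrophage growth factor, 3.97, 1.88 and 2.99, and that in Itgam, the gene of CD11b, 1.52, 1.31 and 1.39. Adgre1, Siglec1 and Spi1, the genes of F4/80, CD169 and PU.1, held none, where only 15.8% of all protein-coding genes held a young-only region. Phagocytosis genes held 14 of 866 regions (1.62%), 4 each in Elmo1 and Dock1, partners in the engulfment of dying cells. Cytokine and inflammation genes held 8 of 406 (1.97%), 3 of them in or near Nfkb1, an NF-kB subunit gene, with the best ranked at 3.09, 2.91 and 2.43, and 2 at the inflammasome gene Nlrp3. MHC class II genes held 1 of 232 (0.431%), in the transactivator gene Ciita, and osteoclast genes 1 of 254 (0.394%), in Nfatc1.

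The largest shares among the functional lists were those of matrix proteases and their inhibitors and of cell cycle and senescence genes. The proteases held 20 of 788 regions (2.54%, old-only 0.381%), spread over 13 of 25 genes. Timp3, a metalloprotease inhibitor gene, held 3, all weak (2.71, 1.51 and 2.40 in the best ranked), and Mmp16 held 2, of which the stronger had 3.50, 4.00 and 5.99 and lay 59159 bp from an old peak. The cell cycle and senescence list held 17 of 730 (2.33%, old-only 1.10%), in 12 of 26 genes. Its leaders were the fetal growth genes Hmga2 (3), Igf2bp3 (3) and Igf2bp1 (2), which code for a chromatin protein and RNA-binding proteins that are abundant in embryonic and young tissue. The Hmga2 region at chr10:120457005-120457318 had −log10 q values of 4.32, 2.88 and 4.20 and lay 2561 bp from an old peak, and the best-ranked Igf2bp3 region, at chr6:49199055-49199253, had 2.47, 1.88 and 3.49 and lay 7427 bp from one. The Hmga2 locus also held 1 old-only region, and those of Igf2bp3 and Igf2bp1 none. One weak young-only region lay 3714 bp from Cdkn2a, the gene of the senescence marker p16, with 1.81, 1.54 and 1.49. The Cdkn2a locus also held 1 old-only region.

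Adhesion and axon guidance genes, most of them very long, held 45 of 2202 regions (2.04%, old-only 0.318%) in 25 of 48 genes. Robo2, a guidance receptor gene, held 4, the best ranked with −log10 q values of 4.18, 2.94 and 6.76 and an old peak at 34726 bp, and Epha3, an ephrin receptor gene, held 3, the best ranked with 5.66, 2.74 and 5.10 and an old peak at 20880 bp. Genes of neurotransmitter receptors and ion channels held 29 of 1399 (2.07%, old-only 1.07%), with 2 at the GABA receptor gene Gabrb1, at 76525 and 76949 bp from an old peak. B cell genes held 13 of 569 (2.28%, old-only 0.879%), of which 5 lay in Bach2 and 5 in Ebf1, both transcription factor genes of the B lineage. The best-ranked Ebf1 region had 2.47, 2.02 and 2.32, and the Ebf1 locus also held 3 old-only regions. Summed over 5 B cell marker loci, peak length per covered Mb overlapped between the ages, as given above.

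Other lists stood on both sides of the background. Wnt genes held 13 of 665 regions (1.95%), 2 each at Fzd1, Lrp5, Lrp6 and Wnt3a, receptors and a ligand of the pathway, and chromatin regulators held 15 of 1004 (1.49%), 5 of them in Arid1b, a SWI/SNF subunit gene, and 3 in Asxl3. TGF-beta and BMP genes held 9 of 744 (1.21%), osteoblast and chondrocyte genes 8 of 668 (1.20%), extracellular matrix genes 12 of 1053 and T cell genes 4 of 406 (0.985%). In Sox6, a chondrocyte transcription factor gene, 1 of 3 regions was well ranked, at 3.74, 4.06 and 4.79, and lay 209 bp from an old peak. Of the cell type marker lists, those of neutrophils, erythroid cells and osteoclasts held 0 young-only regions among 45, 18 and 47 regions. At the background share of 1.35%, lists this small would often hold none. Macrophage markers held 3 of 195, B cell markers 5 of 248, T cell markers 2 of 45, stromal markers 2 of 179, osteoblast markers 2 of 232 and endothelial markers 1 of 96. Lists with long genes and lists with few regions weigh differently in such shares, and none was tested for enrichment.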

How the data were processed

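Per the labels' protocols, each Omni-ATAC library held 50000 cells and was read from both ends (125 bp). Tools in the submitters' processing notes, listed without roles, are MACS2 2.1.0.20140616, Bowtie2 2.2.6, Picard, SAMtools, cutadapt 1.14 and Trim Galore 0.4.4, with mm10 as the build. Whether duplicates were removed, read ends shifted or regions masked was not given in the sources. The authors deposited 1 broad peak list for every library, and each deposited peak has a score, a fold enrichment (a ratio over that library's local background) and −log10 p and −log10 q values. The lowest −log10 q was just over 1 in each list. Read depth is unknown. The labels gave the age and replicate number.

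Peaks were merged at 1 bp of overlap. Strength is the percentile of −log10 q within the list. Genes were 21631 RefSeq protein-coding genes of GRCm38.p6, and starts (17274 genes, none on chromosome 18) came with the RefSeq promoter windows, 250 bases before to 50 after. Library values were compared by exact permutation. Same-numbered libraries did not deviate together (correlations over 16960 loci of 0.14, 0.13 and -0.15), so the numbers were not taken as pairs.

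The text names the 10 genes with most young-only regions, the 10 best-ranked regions overall and at gene ends, the longest chains, the 5 densest stretches of 1 Mb, and up to 4 genes per list, with ties among genes and stretches ordered by the share of young-only regions. The 9 regions with a −log10 q of 5 or more, Hes1, the 27 strong regions far from old peaks, the further promoters and list genes with fewer regions were named after their values were seen. The members and the lists were chosen with earlier results of these data known. Alternatives were other peak thresholds, equal list lengths, merging and overlap rules, distances and leaving out each library. Merging, patterns and distances were tested on simulated data and gave the known answer in 20 of 20 runs, with 660 regions over all runs together. Python 3.11.15, numpy 2.4.6, pandas 2.3.3, scipy 1.17.1 and matplotlib 3.10.9 were used.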

Additional observations from a re-analysis of the deposited data

How the results depend on the processing

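The number of young-only regions was 5014 with a −log10 q of at least 2 in all lists (1632 of them among the 5743), 2002 with at least 5 (9 shared) and 1713 with the 50000 strongest peaks (0 shared). With the limit on the young lists alone, chosen after seeing the data, it was 1633 at 2 and 9 at 5. It was 5673 with peaks up to 100 bp apart merged (5488 of the 5743 shared) and 6767 when peaks had to cover 50% of a region (2198 shared). Under that cover rule a young-only region may itself contain shorter old peaks. Leaving out 1 library drops 1 condition of the rule, which makes a rise likely, and gave 7121 to 15173, each above 5743.

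The share at gene ends was 6.89% with the 50% cover rule, 19.2% with a 5 kb window, and 6.15 to 8.27% with 1 library left out. The share outside genes was 45.5% with a −log10 q of at least 5, 38.5% with the 5 kb window and 42.4 to 43.6% with 1 library left out. The share on chromosome X was 1.40% with a −log10 q of at least 5, 0.817% with the 50000 strongest peaks, 1.58% with the 50% cover rule and 1.72 to 2.54% with 1 library left out.

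The share with another young-only region within 50 kb was 29.8% with a −log10 q of at least 2, 16.3% with at least 5, 18.97% with the 50000 strongest peaks and 37.6% with the 50% cover rule. It was 17.5% within 20 kb, 52.4% within 100 kb and 40.2 to 61.0% with 1 library left out. The median weakest percentile was 10.7 with a −log10 q of at least 5, 11.1 with the 50000 strongest peaks, 32.2 with the 50% cover rule and 29.6 when the median of the 3 young libraries replaced the weakest, and 16.4 to 19.2 with 1 library left out. The share with an old peak within 1 kb was 36.8% and 21.4% with a −log10 q of at least 2 and 5, 11.4% with the 50000 strongest peaks and 46.6% with merging at 100 bp. With the 50% cover rule, where a region may itself contain a shorter old peak, the share with an old peak within 1 kb was 82.9%. The main setting gave 91.2% within 10 kb, and the share within 1 kb was 45.5 to 54.7% with 1 library left out.

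With 1 library left out, old minus young kept its sign and ran from -19310.5 to -3615.5 peaks, from -11.6 to -3.64 Mb and from -0.34 to -0.118 percentage points on X, where 2 against 3 cannot give a p under 0.1. With the replicate block the differences were the same (-10592.7 peaks, -6.56 Mb and -0.204 percentage points), with exact permutation p of 1, 0.5 and 0.5, where 3 pairs cannot give less than 0.25.

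The main limits are that depth is unknown, that most young-only peaks are weak, and that the number of regions found moves with the library left out. The cause of the shifts with the threshold was not tested.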
